A study of Mus musculus with 36 samples.

Results

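The lung response of Notch4-/- mice to 24 hr of ozone was read from 6 of the 36 arrays of the series, the 3 labelled Notch4-/- ozone 24 hr and the 3 labelled Notch4-/- air, over the 45037 probe sets left after 64 Affymetrix control probe sets were set aside. The arrays were chosen by their labels and no measured value was used. All mice of the series were male and 7 to 13 weeks old, and each array held RNA from the left lung of 1 mouse, whose right lung had been lavaged. The Notch4-/- mice carried the targeted allele Notch4tm1Grid in every tissue, on a mixed strain background, and breathed 0.3 ppm ozone without interruption for 6, 24 or 48 hr, or filtered air in a separate chamber. Notch3-/- mice (allele Notch3tm1Grid) and WT mice (B6129SF1/J) were treated the same way. The WT mice were first-generation hybrids and not littermates of the knockouts, so allele and strain background cannot be told apart in a comparison with WT. Each genotype had 1 air group of 3 mice, and the labels do not give how long the air mice stayed in the chamber or at what hour any lung was collected.

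Notch4 is a member of the Notch receptor family and is found mainly in the endothelium. A Notch receptor is cut when a Jagged or Delta-like ligand on a neighbouring cell binds it, and the freed inner part joins RBPJ in the nucleus and turns on genes such as *Hes1*. Ozone is an oxidant gas that injures the lining of airways and alveoli. The injured lung is known to release IL-6 family cytokines, CXC chemokines that recruit neutrophils, acute-phase proteins and ligands of the epidermal growth factor (EGF) receptor.

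Values were deposited on a log2 scale with every probe set centred on its median over the 36 arrays. A level of 0 therefore means the median array of the series, a difference of 1 means a doubling, and neither brightness nor the presence of a lung marker can be read from a level. Differences are given as ozone minus air with the standard error (SE) of the limma fit over the 36 arrays, a probe set was called when its Benjamini-Hochberg adjusted p was below 0.05, and n = 3 mice per group throughout.

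The *Notch4* probe set that separates the genotypes set 2 of the air arrays apart. Its level was -3.78, -3.83 and -4.31 in the ozone 24 hr mice, against -1.97, -1.40 and -3.69 in the air mice, replicates 1, 2 and 3. Air replicates 1 and 2 lay above the 3 ozone arrays, and air replicate 3 lay beside them. On a scale with 0 at the Notch4-/- ozone arrays and 1 at the WT ozone arrays, these air arrays stood at 0.46, 0.59 and 0.04. Of the 11 probe sets that differed by at least 2 between those ozone arrays, *BC018473* stood at 0.36, 0.57 and 0.04, and the median over the 11 was 0, -0.01 and 0.04. On a second scale, made after the values were seen from 21 probe sets that differed by at least 1 between the Notch4-/- (0) and Notch3-/- (1) ozone arrays, the medians were 0.15, 0.39 and 0.01, and 4, 14 and 3 of the 21 lay above every Notch4-/- ozone array. Air replicate 2 also lay nearest the series median, with a standard deviation over probe sets of 0.164, the lowest of the 36 arrays (range 0.164 to 0.426). Which of these features came from the mice and which from the arrays was not tested. Whether air replicates 1 and 2 held RNA of Notch4-/- mice alone was not tested either, and every value of the Notch4-/- air group rests on their labels. The differences between 24 hr ozone and air below are given with the 3 air arrays and, for the called genes and the lists, again without replicates 1 and 2. *Notch4* itself had a difference of -1.62 (SE 0.31, adjusted p = 0.0076) with all 3 and of -0.29 (adjusted p = 0.53) without them. A second *Notch4* probe set had -0.66, -0.63 and -0.59 after ozone and -0.47, -0.19 and -0.82 in air, a difference of -0.14 that was not called.

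After 24 hr of ozone, genes of the IL-6 pathway, neutrophil and monocyte chemokines, acute-phase proteins, metallothionein and matrix remodelling enzymes were higher in Notch4-/- lung, and several outputs of the circadian clock were lower. In all, 518 probe sets were higher (1.15% of those tested) and 107 were lower (0.238%), so that 82.9% of the calls were rises. They named 429 and 72 genes. A doubling or more was reached by 86 of the rises, and a halving or more by 17 of the falls. The 3 ozone arrays lay entirely above the 3 air arrays in 507 of the 518 and entirely below in 105 of the 107, against 12.6% and 7.74% of all probe sets. The median difference over all probe sets was 0.017.

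The air arrays differed more than the ozone arrays in these calls. Over the 518 risen probe sets the median level was 0.32, 0.44 and 0.34 in the ozone arrays, against -0.23, -0.04 and -0.49 in the air arrays. Over the 107 it was -0.41, -0.48 and -0.50 after ozone and 0.19, 0.03 and 0.37 in air. Air replicate 2 was thus nearest to the ozone level and air replicate 3 farthest from it in both sets. Without air replicate 2, 2002 probe sets were called, and without air replicate 3 there were 45. Without ozone replicate 2 there were 82. With air replicates 1 and 2 left out together, so that 1 air mouse stood for the group and was assumed to vary like the others, 2783 were higher (6.18%) and 865 lower (1.92%), and 550 of the 625 were among them. All 625 kept their sign in that fit. For the 507 rises and 105 falls without overlap, no omission of arrays could have turned it. A set of 43 probe sets, 39 higher and 4 lower, was called under each of the 6 omissions of 1 array.

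**Figure D1:**
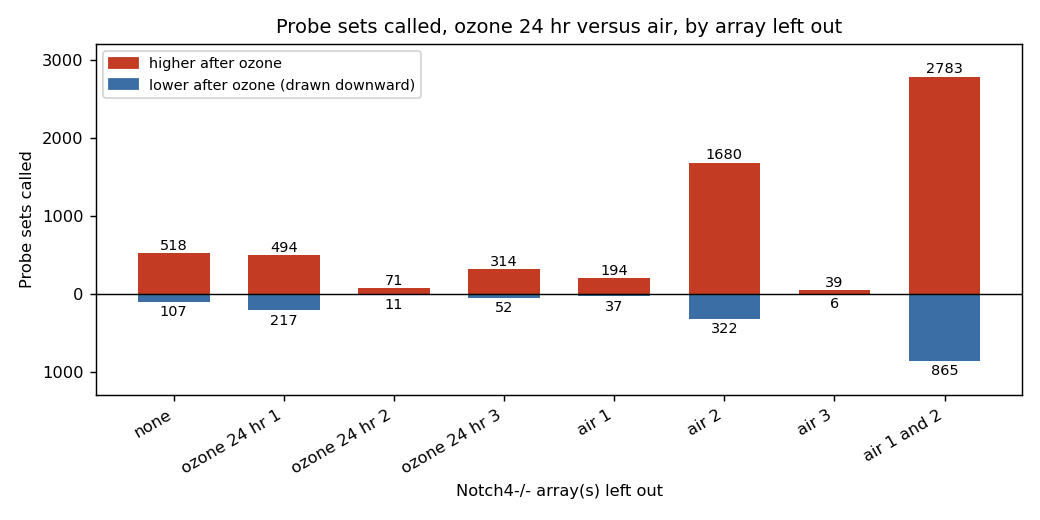
Number of probe sets called higher (up) or lower (down, counted from 0) after 24 hr ozone in Notch4-/- lung with all 6 arrays and with the named array or arrays left out. The total was 625 with all arrays, 45 without air replicate 3, 82 without ozone replicate 2 and 3648 without air replicates 1 and 2.

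Genes of the IL-6 family were among the rises. IL-6, LIF and IL-11 are cytokines that signal through the shared receptor chain gp130, OSMR is the receptor of oncostatin M, SOCS3 is the feedback inhibitor that STAT3 induces, and BCL3 is a nuclear cofactor of NF-kB. Of 14 measured genes of the list, 6 rose and none fell, against 1.52% higher and 0.264% lower over all 18193 genes, with a median difference of 0.55, against 0.025 over all genes. The count was also 6 without air replicates 1 and 2, where 7.21% of all genes were higher and 1.95% lower. Later counts without air replicates 1 and 2 are to be read beside these larger shares of that fit. *Il6* had levels of 2.50, 2.55 and 1.61 in the ozone 24 hr mice, against -1.14, -0.45 and -0.97 in the air mice, with no overlap. The difference was 3.07 (SE 0.39, adjusted p = 0.0001), an 8.42-fold higher level, and 3.19 (adjusted p = 0.0016) without air replicates 1 and 2. *Socs3* stood at 0.79, 0.99 and 0.90 after ozone and at -0.50, -0.26 and -0.88 in air (difference 1.44, SE 0.15, adjusted p = 5.1e-06; 1.78 without both air replicates). Its ozone arrays differed among themselves by less than its air arrays did. *Bcl3* rose by 1.40, *Lif* by 1.32, *Osmr* by 1.28 and *Il11* by 0.74 (1.98, 1.67, 1.80 and 0.79 without both air replicates). All 6 of these were called under each omission of 1 array.

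The stretches of 250 bases before the start of *Il6* and *Socs3* show the letters bound by the factors that background knowledge places upstream of them. They are from the RefSeq annotation of GRCm38.p6, read 5′ to 3′ on the strand of the gene, with matches in capitals. For *Il6* (chr5:30012864-30013113, plus strand) the capitals mark an NF-kB motif at positions -44 to -35 from the start. For *Socs3* (chr11:117969367-117969616, minus strand) they mark the STAT motif TTCNNNGAA at -154 to -146.
Il6: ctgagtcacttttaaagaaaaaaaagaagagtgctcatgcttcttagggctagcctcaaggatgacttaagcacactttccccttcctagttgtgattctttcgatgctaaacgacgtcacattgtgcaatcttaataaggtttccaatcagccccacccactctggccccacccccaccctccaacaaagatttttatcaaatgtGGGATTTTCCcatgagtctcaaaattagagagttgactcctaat
Socs3: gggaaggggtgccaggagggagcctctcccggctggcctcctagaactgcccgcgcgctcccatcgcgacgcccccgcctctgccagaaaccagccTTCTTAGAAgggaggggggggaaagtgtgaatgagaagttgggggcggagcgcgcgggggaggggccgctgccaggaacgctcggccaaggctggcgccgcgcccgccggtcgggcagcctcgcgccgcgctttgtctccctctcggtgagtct
Over 27025 mouse promoter stretches of this length, searched on both strands, 3.75% held the NF-kB motif and 7.18% held TTCNNNGAA. Among the 340 risen genes with a stretch the shares were 7.65% and 8.82%, and among the 60 fallen genes 8.33% and 10%. These shares were not tested. The *Bcl3* stretch, searched for both motifs, held neither.

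Chemokines that attract neutrophils made up the next group. Of 15 measured chemokine and adhesion genes of this list 8 rose and none fell (median 0.34), and 7 rose without air replicates 1 and 2. *Cxcl5*, an epithelial neutrophil attractant, had 3.84, 2.56 and 1.42 after ozone and -1.43, 0.55 and -1.12 in air (difference 3.27, SE 0.59, adjusted p = 0.0045; 3.73 without both air replicates). It was the largest called rise among the named genes, and its 3 ozone mice were spread more widely than those of the other CXC genes. *Cxcl5* was no longer called without air replicate 3. *Cxcl3* was tighter, at 2.36, 2.13 and 1.65 after ozone and -0.37, 0.07 and -1.15 in air (difference 2.53, SE 0.32, adjusted p = 0.0001; 3.20 without both air replicates). *Cxcl1* stood at 1.64, 1.88 and 0.97 after ozone and at -0.99, -0.51 and -0.72 in air (difference 2.24, SE 0.36, adjusted p = 0.0017; 2.22 without both air replicates). *Cxcl3* and *Cxcl1* did not overlap between the groups and were called under each omission of 1 array. *Cxcl2* rose by 1.33 (1.81 without both air replicates). The selectins through which leukocytes roll on the endothelium rose less, *Sele* by 0.78 and *Selp* by 0.69, with adjusted p = 0.049 and 0.045, and *Sele* was not called without air replicates 1 and 2 (0.88, adjusted p = 0.061), where *Selp* had 0.94. *Icam1*, the endothelial ligand of leukocyte integrins, had a difference of 0.49 at adjusted p = 0.04998, just inside the threshold, and *Cxcl15*, a lung-specific chemokine, one of 0.34 (0.65 and 0.44 without both air replicates). Both were added after their values were seen, to complete the 8.

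The *Cxcl1* stretch (chr5:90890995-90891244, plus strand) is shown because it carries the NF-kB motif at 2 overlapping places, -71 to -62 and -70 to -61, marked together in capitals.
Cxcl1: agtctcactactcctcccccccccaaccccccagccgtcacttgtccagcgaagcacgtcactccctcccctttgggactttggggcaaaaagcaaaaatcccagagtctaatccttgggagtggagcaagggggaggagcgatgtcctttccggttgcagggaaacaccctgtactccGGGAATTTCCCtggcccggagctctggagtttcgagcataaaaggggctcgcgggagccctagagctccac
The paralogs *Cxcl2* and *Cxcl3* also held the motif within 250 bases of the start. The *Saa3* stretch, searched for it as well, did not hold it.

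Markers of the neutrophil itself went both ways. Of 15 measured neutrophil markers 1 rose, *Lcn2*, which epithelium also makes, and none fell, against 1.52% and 0.264% of all genes. Their differences ran between -1.33 and 1.13, with a median of -0.09. At an unadjusted p below 0.05, limma gave 1 higher and 0 lower, against 13% and 5.77% of all genes. The mean of the list was -0.02, 0.08 and 0.32 in the ozone mice, against 0.27, 0.02 and 0.28 in the air mice. The paper reports more neutrophils in lavage fluid of Notch4-/- mice at this time, a count of cells and not of RNA. In whole lung RNA fewer cells of a type and less RNA per cell cannot be told apart.

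CC chemokines, which attract monocytes and lymphocytes, rose in 4 of 16 measured genes, with none lower and a median of 0.45 (5 of 16 without air replicates 1 and 2). The monocyte attractant *Ccl7* had 1.04, 2.08 and 1.71 after ozone and -0.45, -0.02 and -0.63 in air (difference 1.98, SE 0.25, adjusted p = 0.0001; 2.24 without both air replicates). *Ccl2*, its neighbour in function, stood at 0.72, 1.61 and 1.25 after ozone and at -0.36, 0.05 and -0.71 in air (difference 1.53, adjusted p = 0.0015; 1.90 without both). *Ccl22* rose by 1.43 and *Ccl17* by 1.07 (1.76 and 1.31 without both), both ligands of CCR4 on T cells. In these 4 genes no ozone array overlapped an air array. The eosinophil attractant *Ccl11* had a difference of 1.10 (adjusted p = 0.091) and the CCR6 ligand *Ccl20* one of 1.03 (adjusted p = 0.15). Neither was called.

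**Figure D2:**
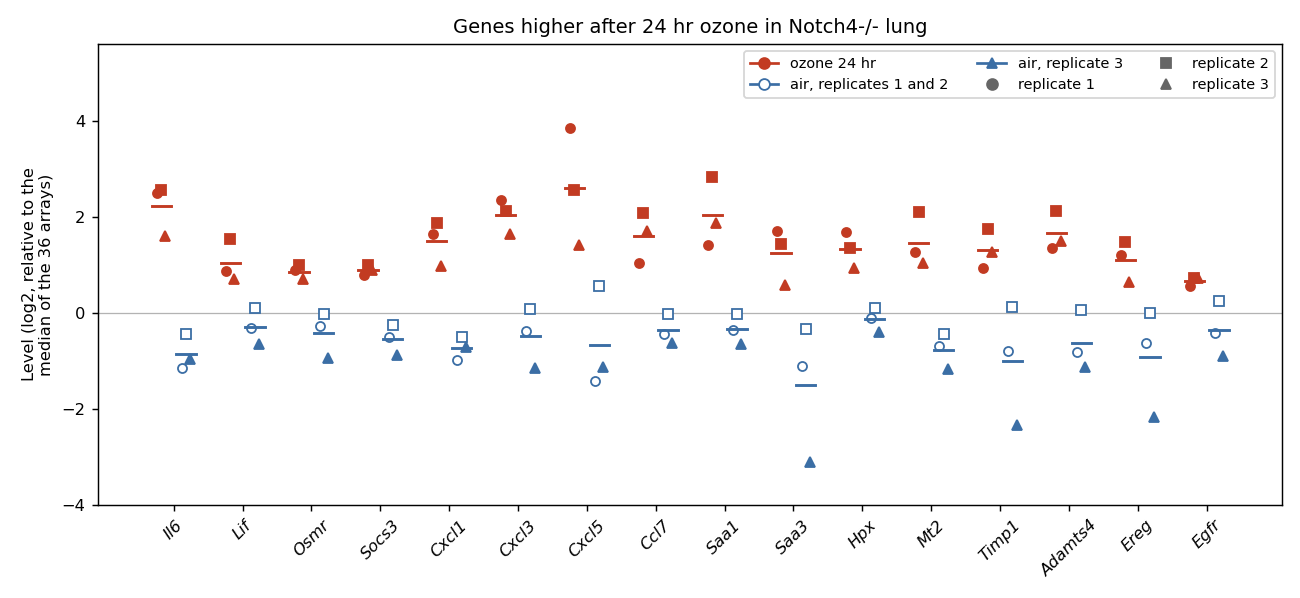
Level (log2, centred on the median of the 36 arrays) of 16 genes called higher in Notch4-/- lung after 24 hr ozone, with each mouse as a point, ozone left of air, and group means as bars. In these 16 genes each ozone point lies above each air point, and air replicate 2 (open square) is nearest the ozone points in most of them.

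Upstream of these cytokines, signalling genes of the Toll-like receptor, IL-1 and NF-kB list changed in 5 of 40 measured members, all higher (median 0.14; 8 of 40 without air replicates 1 and 2). They were the alarmin *Il33*, by 0.80, the receptor *Il1r1*, by 0.79, the adaptor *Myd88*, by 0.73, and the NF-kB subunits *Relb*, by 0.71, and *Nfkb2*, by 0.58. Without air replicates 1 and 2, *Il1r1*, *Myd88*, *Relb* and *Nfkb2* had 0.96, 1.01, 0.90 and 0.76. *Myd88* stood at 0.48, 0.46 and 0.39 after ozone and at -0.26, -0.03 and -0.57 in air (SE 0.11, adjusted p = 0.0014), and with *Il1r1* it was called under each omission of 1 array. *Il33* was not called without air replicates 1 and 2 (0.69, adjusted p = 0.11). The ubiquitin ligase *Traf6*, next in the same chain, had 0.11, 0.15 and 0.20 after ozone and -0.05, -0.27 and -0.21 in air (difference 0.33, adjusted p = 0.22). *Tnf* lay at 0.09, 0.27 and -0.01 after ozone, against 0.07, 0.31 and -0.30 in air, so its groups overlapped (difference 0.09, SE 0.18, adjusted p = 0.84). Of 14 genes of the TNF list 2 rose, both receptors, *Tnfrsf12a* by 0.75 and *Tnfrsf1a* by 0.51 (0.96 and 0.69 without air replicates 1 and 2, where 4 of the 14 rose).

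Acute-phase proteins are secreted in inflammation, chiefly by the liver, and some are also made by lung epithelium. In this list 7 of 19 measured genes rose and none fell (median 0.78), and the count was 7 without air replicates 1 and 2. *Saa3*, the serum amyloid A made outside the liver, had 1.70, 1.43 and 0.58 after ozone and -1.11, -0.33 and -3.10 in air (difference 2.75, SE 0.47, adjusted p = 0.0024). Air replicate 3 lay far under the other air arrays, and without the other air replicates the difference was 4.34. *Saa1* stood at 1.42, 2.82 and 1.87 after ozone and at -0.36, -0.02 and -0.65 in air (difference 2.38, SE 0.28, adjusted p = 4.9e-05; 2.69 without both air replicates). Hemopexin, *Hpx*, which binds free heme, had 1.69, 1.36 and 0.94 after ozone and -0.10, 0.10 and -0.39 in air (difference 1.46, adjusted p = 0.0017; 1.72 without both). *Lrg1* rose by 1.32, *Lcn2*, which binds bacterial iron carriers, by 1.13 and *Itih4* by 0.93. Without both air replicates they had 1.69, 1.84 and 1.01, and *Itih4* was not called (adjusted p = 0.07). *Orm2*, named to complete the 7 after its value was seen, rose by 0.92 at adjusted p = 0.046, with 1 ozone array at -0.04 (1.17 without both air replicates).

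Metal handling was represented by metallothionein 2. *Mt2*, a zinc-binding protein induced by metals and glucocorticoids, had 1.27, 2.09 and 1.03 after ozone and -0.69, -0.45 and -1.16 in air (difference 2.23, SE 0.26, adjusted p = 4.9e-05; 2.63 without air replicates 1 and 2). With the zinc importer *Slc39a14*, at 0.72, it made 2 of 13 measured genes of that list (*Slc39a14* at 0.87 without air replicates 1 and 2). Another *Slc39a14* probe set had a difference of 1.32 and was called under each omission of 1 array. The *Mt2* stretch (chr8:94172368-94172617, plus strand) is printed for its matches to the metal-response motif, TGCACNC at -223 to -217 and, on the other strand, at -50 to -44, and TGCGCNC at -128 to -122.
Mt2: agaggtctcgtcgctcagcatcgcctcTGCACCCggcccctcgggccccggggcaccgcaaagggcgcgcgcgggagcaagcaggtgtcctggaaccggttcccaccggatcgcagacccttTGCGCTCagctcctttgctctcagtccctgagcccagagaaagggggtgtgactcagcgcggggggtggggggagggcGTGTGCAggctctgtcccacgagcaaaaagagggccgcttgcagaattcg
Of the 27025 stretches 10.2% held TGCACNC and 12.6% held TGCGCNC. The shares were 12.4% and 21.2% among the risen genes and 15% and 21.7% among the fallen genes. Antioxidant genes under NRF2, by contrast, gave 0 calls of 24 on the probe set chosen for each gene (median 0.22, highest 0.71; 5 higher and 1 lower at an unadjusted p below 0.05, which 13% and 5.77% of all genes passed in those directions, and 1 of 24 called without air replicates 1 and 2). *Gclc*, the catalytic subunit of the enzyme that limits glutathione synthesis, had 0.74, 0.54 and 0.75 after ozone and -0.07, 0.01 and -0.03 in air (difference 0.71, SE 0.22, adjusted p = 0.094). Its groups did not overlap, and another *Gclc* probe set was called, with a difference of 1.04.

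Of 22 measured proteases, inhibitors and matrix genes 6 rose and none fell, against 1.52% and 0.264% of all genes (median 0.28, lowest -0.57; 7 rose without air replicates 1 and 2). The metalloprotease inhibitor *Timp1* had 0.94, 1.74 and 1.26 after ozone and -0.80, 0.13 and -2.33 in air (difference 2.32, SE 0.38, adjusted p = 0.0017; 3.65 without both air replicates). The aggrecanase *Adamts4* had 1.36, 2.12 and 1.5 after ozone and -0.82, 0.05 and -1.12 in air (difference 2.29, SE 0.32, adjusted p = 0.00031), with 2.11 on its other called probe set (2.78 and 2.81 without both air replicates). The matrix glycoproteins *Tnc* and *Thbs1* rose by 2.07 and 1.84, *Mmp3* by 1.22 and *Mmp19* by 0.73 (3.27, 2.56, 1.55 and 0.77 without both). In the list of EGF receptors and ligands 4 of 11 rose and none fell (median 0.43, lowest -0.23; 6 rose without both air replicates). Epiregulin, *Ereg*, a ligand of the EGF receptor, had 1.21, 1.47 and 0.64 after ozone and -0.62, -0.01 and -2.16 in air (difference 2.04, SE 0.33, adjusted p = 0.0018; 3.27 without both). The ligands *Hbegf* and *Nrg1* rose by 0.78 and 0.65 (1.01 and 0.61 without both). The receptor *Egfr* itself stood at 0.55, 0.72 and 0.73 after ozone and at -0.43, 0.25 and -0.90 in air (difference 1.03, adjusted p = 0.045), a call kept in 1 of the 6 omissions of 1 array and, at 1.57, without air replicates 1 and 2. Of 23 measured squamous repair genes 1 rose, *Tgm1* by 1.08 (adjusted p = 0.018 by limma), and none fell, against 1.52% and 0.264% of all genes. The median of that list was 0.11, and 0.24 without air replicates 1 and 2. An *Ivl* probe set not counted in that list was also called, with a difference of 0.90. The squamous repair marker *Sprr1a* had a difference of 1.49 that was not called (adjusted p = 0.095), with air replicate 2 at 0.79, above 2 of the ozone arrays. Without air replicates 1 and 2 its difference was 3.28.

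Among the other large rises were genes of several functions. *Chrna7*, a nicotinic acetylcholine receptor subunit, had 1.16, 2.40 and 1.47 after ozone and -0.68, 0.02 and -1.59 in air (difference 2.43, SE 0.38, adjusted p = 0.0014; 3.27 without both air replicates). *Aldh1a3*, which makes retinoic acid, stood at 1.39, 1.97 and 1.72 after ozone and at -0.29, -0.30 and -0.23 in air (difference 1.97, SE 0.29, adjusted p = 0.00086; 1.93 without air replicates 1 and 2). Its 3 air mice lay within 0.1 of each other, so that leaving out replicates 1 and 2 moved the difference little. *Ch25h*, which makes 25-hydroxycholesterol, rose by 1.82, *Lonrf3* by 1.71 and the vasodilator peptide *Adm* by 1.67 (2.46, 2.45 and 2.12 without both). *Tfpi2*, an inhibitor of serine proteases, rose by 1.24 and the stress gene *Gadd45g* by 1.19. Without both air replicates *Tfpi2* had 1.55, and *Gadd45g* was not called (1.19, adjusted p = 0.055). Of 23 immediate early transcription factor genes 5 rose (*Fosl1*, *Egr2*, *Junb*, *Myc* and *Maff*, by 0.67 to 0.95), none fell, and the median was 0.38 (6 rose without both). Complement *C2* and *Cfb* rose by 0.96 and 0.79, 2 of 13 measured complement genes (1.45 and 1.31 without both, where 4 of 13 rose).

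Genes of the circadian clock changed in both directions. The clock is a loop in which CLOCK or NPAS2 with ARNTL turns on the *Per* genes, the repressors *Nr1d1* and *Nr1d2* and the PAR-bZIP factors *Dbp* and *Tef*, while NFIL3 competes with DBP and TEF for their sites. Of 20 measured clock genes 3 rose and 4 fell (median -0.11), and 3 rose and 3 fell without air replicates 1 and 2. *Dbp* had -1.39, -2.64 and -3.13 after ozone and 1.33, 0.42 and 1.52 in air (difference -3.47, SE 0.63, adjusted p = 0.0046; -3.90 without both air replicates), the largest called fall among the named genes. *Nr1d2* stood at -0.56, -1.27 and -1.48 after ozone and at 0.47, 0.03 and 0.64 in air (difference -1.48, SE 0.28, adjusted p = 0.0075; -1.74 without both). *Nr1d1* had -0.45, -0.69 and -0.79 after ozone and 0.42, 0.30 and 0.26 in air (difference -0.97, SE 0.17, adjusted p = 0.0042; -0.91 without both), the only one of these falls called under each omission of 1 array. *Tef* fell by 1.05 (adjusted p = 0.027; 0.062 without both) and *Per3* fell by 1.78 (adjusted p = 0.04; difference -2.44 without both), though another *Per3* probe set had a difference of -0.19. In the opposite direction, *Npas2* had 1.78, 2.00 and 1.61 after ozone and -0.98, 0.10 and -1.39 in air (difference 2.56, SE 0.55, adjusted p = 0.019; 3.19 without both). *Nfil3* had 0.63, 0.93 and 1.01 after ozone and -0.98, -0.22 and -2.07 in air (difference 1.95, SE 0.32, adjusted p = 0.0017; 2.92 without both), and *Clock* had a difference of 0.57 (adjusted p = 0.033; 0.87 without both). Partners in the loop thus lay on opposite sides of the air level, with no overlap between groups in *Dbp*, *Nr1d2*, *Nr1d1*, *Npas2* or *Nfil3*. The list counted *Npas2* by another probe set, with a difference of 0.81 (adjusted p = 0.041 by limma), and *Per3* by the one at -0.19.

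All of these genes but *Clock* (0.48, adjusted p = 0.055) were also called between 24 and 6 hr of ozone, a comparison that uses no air array but shares the 24 hr arrays. *Dbp* was lower at 24 hr than at 6 hr by a difference of -3.56 (adjusted p = 0.0023), *Nr1d2* by -1.65 (0.0017), *Per3* by -1.99 (0.015), *Tef* by -1.16 (0.0098) and *Nr1d1* by -0.88 (0.006), while *Npas2* was higher by 2.54 (0.013) and *Nfil3* by 1.5 (0.01). At 6 hr *Dbp* lay at 1.14, 1.24 and 1.16, at the height of the air mice. Since no source gives the hour of collection, exposure time and time of day cannot be told apart in these genes. The *Per3* stretch (chr4:151044666-151044915, minus strand) is shown for the site TTANGTAA of the DBP, TEF and NFIL3 family, in capitals at -205 to -198 and -158 to -151.
Per3: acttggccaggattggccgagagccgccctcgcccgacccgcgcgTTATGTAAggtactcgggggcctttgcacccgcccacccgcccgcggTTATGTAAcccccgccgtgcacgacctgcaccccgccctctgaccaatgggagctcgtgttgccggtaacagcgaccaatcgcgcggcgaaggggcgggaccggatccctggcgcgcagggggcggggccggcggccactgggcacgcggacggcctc
Of all stretches 2.11% held this motif, of those of risen genes 1.47% and of those of fallen genes 3.33%. The stretches of *Dbp*, *Tef*, *Nr1d1*, *Nr1d2* and *Nfil3*, searched for it as well, did not hold it.

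**Figure D3:**
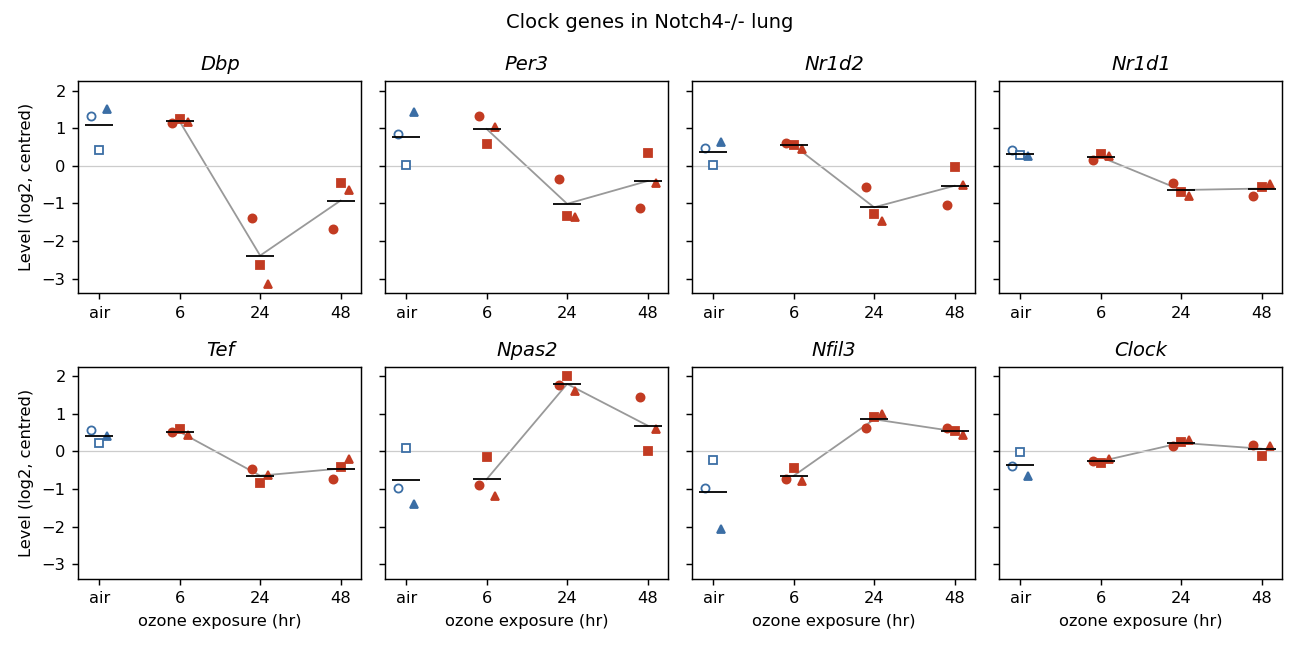
Level (log2, centred) of 8 clock genes in Notch4-/- lung in air and after 6, 24 and 48 hr of ozone, with each mouse as a point (open, air replicates 1 and 2) and group means as black bars. The *Dbp* points at 24 hr lie between -3.13 and -1.39, below the air and 6 hr points, and the *Npas2* points at 24 hr lie between 1.61 and 2.00, above them.

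Genes outside the clock fell as well. *Rab6b*, a Golgi transport GTPase, had -1.10, -1.35 and -1.58 after ozone and -0.52, 0.05 and 0.30 in air (difference -1.29, SE 0.29, adjusted p = 0.024; -1.65 without air replicates 1 and 2). *Ptgfr*, the prostaglandin F receptor, fell by 1.26, *Rgs2*, a brake on G protein signalling, by 1.06, *Wif1*, a secreted Wnt inhibitor, by 0.97, *Pik3ip1* by 0.97, the peroxiredoxin *Prdx4* by 0.95 and the potassium channel subunit *Kcnmb2* by 0.94. The noncoding or unnamed transcripts *9130015G15Rik* and *Gm11266* fell by 1.13 and 1.06. Without both air replicates the differences of these 8 genes ran between -1.81 for *Ptgfr* and -0.87 for *Wif1*, which was then not called (adjusted p = 0.082). Of the 4 falls called under each omission of 1 array, 3 had a symbol: *Nr1d1*, *Adi1*, an enzyme of methionine salvage (-0.57), and *Mettl7a1* (-0.62), the last pair named after their values were seen. *Adi1* lay at -0.48, -0.74 and -0.55 after ozone and within 0.05 of 0 in the 3 air mice.

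Of the 30 measured genes of the Notch pathway 1 rose and none fell, against 1.52% and 0.264% of all genes. Their differences lay between -0.16 and 0.69, with a median of 0.09 (0.1 without air replicates 1 and 2). *Notch4* was counted there by yet another probe set, with a difference of -0.05, which did not separate the genotypes, and not by the called probe set at -1.62. The gene that rose was *Notch3*, a receptor of vascular smooth muscle and pericytes, with 0.49, 0.56 and 0.75 after ozone and 0.01, -0.05 and -0.23 in air (difference 0.69, SE 0.16, adjusted p = 0.028; 0.83 without air replicates 1 and 2). The call was kept in 2 of the 6 omissions of 1 array, and at 48 hr the difference from air was 0.04. The ligand *Dll1* had a difference of 0.65 (adjusted p = 0.35), the ligand *Jag1* one of 0.21 and the target *Hes1* one of -0.14, none of them called.

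Several marker lists moved with single arrays. Club cell secretory genes averaged 1.19, -1.31 and -1.56 in the ozone mice, against 0.91, 0.90 and 0.66 in the air mice, so that ozone replicates 2 and 3 were low and ozone replicate 1 was not. *Bpifa1* had 3.47, -5.07 and -5.51 after ozone and 1.72, 3.28 and 2.47 in air, and its difference of -4.86 had an SE of 2.12 (adjusted p = 0.23). *Reg3g* and *Scgb3a1* were low in the same mice, with differences of -3.81 and -3.57, while *Scgb1a1*, the defining club cell secretoglobin, had 0.04 and *Sftpd* 0.20. The medians of the 10 genes were 0.21, -0.36 and -0.33 after ozone and 0.15, 0.08 and 0.05 in air, nearer to each other than the means. Cardiac muscle genes averaged 0.61, -1.37 and -1.67 after ozone and 0.92, 0.53 and 0.38 in air, and adipocyte genes 0.62, -0.64 and -0.90 after ozone and 0.50, 0.50 and -0.16 in air. None of the 10 club cell, 12 cardiac or 6 adipocyte genes was called. At an unadjusted p below 0.05, which 13% of all genes passed as higher and 5.77% as lower, limma gave 1 higher and 4 lower club cell genes, 6 lower cardiac genes and 0 adipocyte genes. Mitosis genes averaged -0.02, 0.25 and 0.10 after ozone and 0.68, 0.85 and -0.26 in air, high in air replicates 1 and 2, and 0 of 31 were called (3 lower at an unadjusted p below 0.05). Mesothelial genes averaged 0.55, 0.34 and 0.37 after ozone and -0.44, -0.10 and -0.82 in air, with a median difference of 1.01 and 0 of 7 called (6 higher at an unadjusted p below 0.05, and 4 of 7 called without air replicates 1 and 2). Their part in the results was not tested. Endothelial, alveolar type 1 and type 2, fibroblast and smooth muscle markers had 0 calls with the 3 air arrays. Their median differences lay between 0.02 and 0.18, and between 0.1 and 0.34 without air replicates 1 and 2. At an unadjusted p below 0.05 there were 6 higher endothelial genes of 17, 3 higher type 2 genes of 11, and 2 higher and 1 lower in each of the fibroblast and smooth muscle lists.

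**Figure D4:**
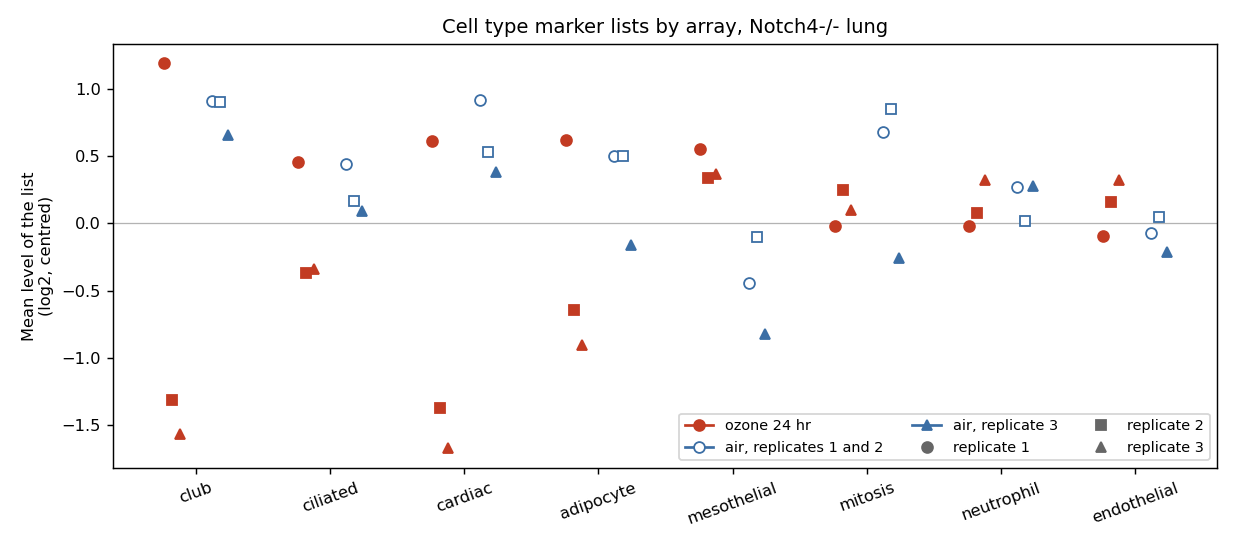
Mean level (log2, centred) of 8 lists of marker genes in each Notch4-/- mouse, ozone 24 hr left of air. Ozone replicates 2 and 3 lie at -1.31 or lower for club cell and cardiac genes, where ozone replicate 1 and the 3 air mice lie at 0.38 or higher, and the 3 ozone mice lie above the 3 air mice for mesothelial genes.

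Other immune programmes gave no call with the 3 air arrays: 0 of 25 interferon-stimulated genes, 0 of 17 T cell receptor genes, 0 of 11 B cell genes and 0 of 9 MHC class II genes. At an unadjusted p below 0.05, limma gave 2 higher and 2 lower interferon-stimulated genes, 1 lower T cell gene, 0 B cell genes and 2 lower class II genes, against the same 13% and 5.77%. Without air replicates 1 and 2 there were 3 lower T cell genes, 4 lower B cell genes and 3 lower class II genes, and 3 higher interferon-stimulated genes. Collagens had a median difference of 0.45 with 0 of 17 called (4 higher at an unadjusted p below 0.05), and 5 higher without those replicates.

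Few probe sets were called after 6 hr of ozone and more after 48 hr. At 6 hr of ozone 3 probe sets were called against the same air arrays (0.00666%), and at 48 hr 668 were higher (1.48%) and 122 lower (0.271%). These comparisons share the air arrays with the one at 24 hr. *Il6* had differences of 0.29, 3.07 and 2.93 at 6, 24 and 48 hr, *Socs3* of -0.10, 1.44 and 1.26, *Saa3* of -0.64, 2.75 and 2.54 and *Ereg* of -0.79, 2.04 and 2.83. Other genes had a smaller difference at 48 hr than at 24 hr. *Aldh1a3* had 0.02, 1.97 and 0.30 at 6, 24 and 48 hr, *Cxcl5* -0.22, 3.27 and 0.86, and *Egfr* 0.14, 1.03 and 0. Directly between the times, 728 probe sets were higher (1.62%) and 515 lower (1.14%) at 24 than at 6 hr, and 933 were higher (2.07%) and 1264 lower (2.81%) at 48 than at 24 hr. Of the mitosis list 9 of 31 genes were higher at 48 hr against air, where 2.07% of all genes were.

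The other genotypes show which of these differences were shared. In WT lung 42 probe sets were higher (0.0933%) and 5 lower (0.0111%) at 24 hr, and in Notch3-/- lung 620 were higher (1.38%) and 603 lower (1.34%). Of the 42 WT rises 30 (71.4%) were among the 518 in Notch4-/- lung, of which they made 5.79%. Of the 620 Notch3-/- rises 135 (21.8%) were among them, or 26.1% of the 518. Of the 603 Notch3-/- falls 16 (2.65%) were among the 107, or 15%, and of the 5 WT falls 0. *Il6* was higher by 3.07 in Notch4-/-, 3.58 in Notch3-/- and 2.48 in WT lung, *Mt2* by 2.23, 2.48 and 1.91, and *Adamts4* by 2.29, 2.46 and 1.58, each called in all 3 genotypes.

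Counts of calls cannot show that genotypes differ, so the difference between responses was tested itself. For Notch4-/- minus WT, 0 of 45037 probe sets were called (0%) by limma, and 2366 (5.25%) had an unadjusted p below 0.05. The lowest adjusted p was 0.59, and the median SE of such a difference was 0.196. For Notch4-/- minus Notch3-/-, 20 were called (0.0444%), 16 higher (0.0355%) and 4 lower (0.00888%), and 8992 (20%) had an unadjusted p below 0.05. Without Notch4-/- air replicates 1 and 2 there were 0 and 3513 calls. None of the acute-phase, chemokine or clock genes named above was among the 20. *Saa1* had a difference of 2.38 in Notch4-/- and 0.90 in Notch3-/- lung, and the difference between them was 1.48 (adjusted p = 0.078). *Ccl17* had 1.07 in Notch4-/- and 2.07 in Notch3-/- lung (difference -0.99, adjusted p = 0.073), and *Gclc* had 0.71 and 1.79 in the same order (difference -1.09, adjusted p = 0.089). Of the 24 NRF2 genes 8 were higher in Notch3-/- lung, against 1.79% of all genes. The collagens had medians of 0.45 in Notch4-/- and -0.58 in Notch3-/- lung, with 0 called in either.

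**Figure D5:**
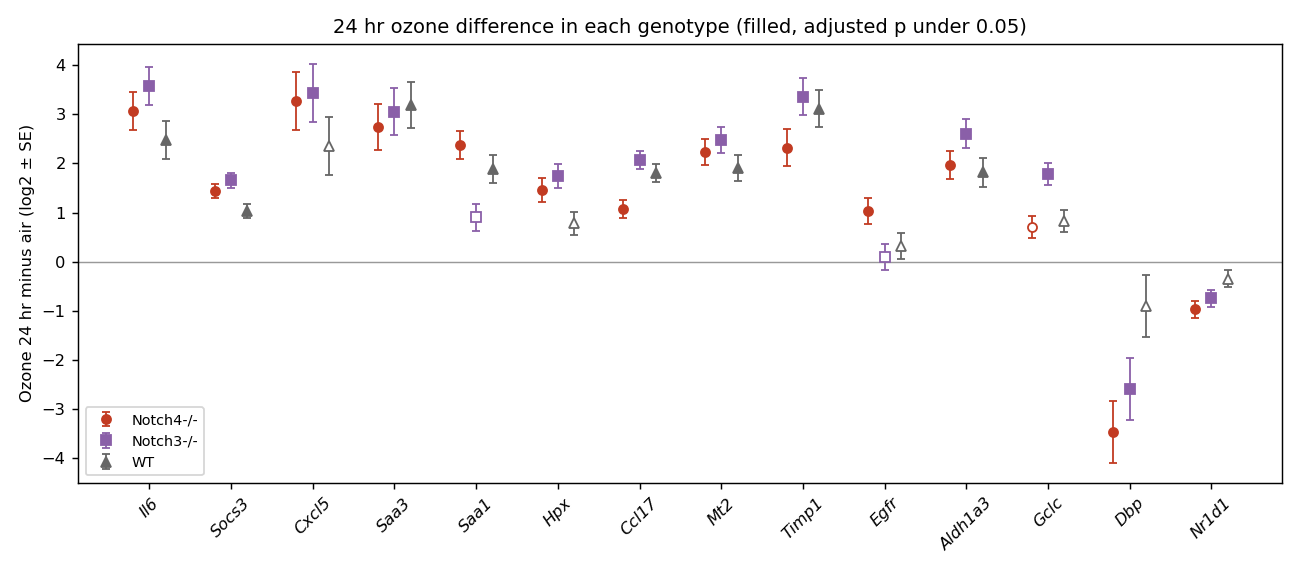
Difference between 24 hr ozone and air (log2 ± SE of the limma fit, 3 mice per group) for 14 genes in Notch4-/-, Notch3-/- and WT lung, filled where the adjusted p was below 0.05. *Egfr* is at 1.03 in Notch4-/-, 0.09 in Notch3-/- and 0.32 in WT lung, and none of the 14 genes was called for a difference between responses.

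The position of the Notch4-/- mice on the responses of the other genotypes can also be read array by array. On a scale with 0 at the air mean and 1 at the 24 hr ozone mean of Notch3-/- lung, over 179 probe sets, the Notch4-/- ozone arrays had medians of 0.72, 0.70 and 0.79 and the Notch4-/- air arrays 0.30, 0.39 and 0.09. On the same scale made from WT lung, over 33 probe sets, the ozone arrays had 1.18, 1.36 and 1.12 and the air arrays 0.28, 0.55 and -0.03. Air replicates 1 and 2 thus stood part of the way towards the ozone level on both scales and air replicate 3 did not. Their standard deviations over probe sets were 0.207 and 0.164, against 0.338 in replicate 3. An array near the series median tends to fall between the air and ozone means on such a scale. Whether this placed them there was not tested.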

How the data were processed

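Left lung RNA of 36 mice, 3 in each of 12 groups, was hybridized to Affymetrix mouse arrays. The authors normalized the arrays by RMA and deposited log2 values, in which the median of every probe set over the 36 arrays was 0 (largest absolute median 5e-07). Depth is not defined for arrays, and their number limits the precision: the median SE of the main difference was 0.139 log2 units.

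Of 45101 rows, 64 control probe sets were left out and 45037 were tested, of which 34945 had 1 gene symbol, 932 several and 9160 none; 34741 were matched to RefSeq. limma 3.58.1 in R 4.3.3 was fitted with 12 group means over the 36 arrays, with Benjamini-Hochberg adjustment per comparison and a threshold of 0.05. The response differences between genotypes were contrasts of the same fit. The fit was tested on simulated data. Their noise was independent and, for each probe set, equal in all arrays, so the test could not cover arrays of unequal spread. Each gene list used 1 probe set per gene, chosen by its name and number and not by its value.

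Members and lists were chosen with earlier results of these data known. Genes were named by rule: the 20 largest rises and 15 largest falls that were called without overlap, the 5 largest each way of the response differences, up to 6 of each list, and the Notch genes and genes the study discusses. Alternatives were each array left out, both doubtful air arrays left out, a replicate block, another quantile normalization, median centring, smaller fits, array weights, analysis of variance with a Tukey test, a robust prior and 2 filters. The replicate numbers were not taken to pair mice. Promoters were read from RefSeq (GRCm38.p6).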

Additional observations from a re-analysis of the deposited data

Results flagged for a closer look

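The response to 24 hr ozone differed between Notch4-/- and Notch3-/- lung in 20 probe sets by the limma test of the difference itself, and 8 genes of these are named. Each had an adjusted p of 0.0499, just inside the threshold, and 0 probe sets were called without Notch4-/- air replicate 1. Those higher in Notch4-/- than in Notch3-/- were *Aak1* (difference of responses 1.54; 0.80 in Notch4-/- and -0.74 in Notch3-/-), *Tet1*, a demethylase of DNA (1.51; 0.25 and -1.26), complement *C2*, on another probe set than above (1.39; 0.88 and -0.51), the apelin receptor *Aplnr* (1.22; 0.32 and -0.90) and *Gm5124* (0.85; 0.53 and -0.32). Those lower were the transcript *D17H6S56E-5* (-1.77; 0.07 in Notch4-/- and 1.84 in Notch3-/-), the splicing factor *Snrpb2* (-0.77; -0.44 and 0.34) and *Pgm3* (-0.67; -0.05 and 0.62). *Tet1*, *Aplnr*, *D17H6S56E-5* and *Pgm3* were called in Notch3-/- lung and not in Notch4-/- lung. *D17H6S56E-5* stood at 0.14, -0.13 and 0.20 after ozone and 0.41, 0.03 and -0.44 in air in Notch4-/- mice, and at 0.68, 0.69 and 0.51 after ozone and -1.22, -1.30 and -1.13 in air in Notch3-/- mice.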

How the results depend on the processing

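The number of calls changed widely with the arrays kept and with the method. The count of 625 (518 higher, 107 lower) ran between 45 (39 and 6, without air replicate 3) and 2002 (1680 and 322, without air replicate 2) over the omissions of 1 array. It was 3648 (2783, 865) without air replicates 1 and 2, 47 (37, 10) with only the Notch4-/- arrays in the fit, 0 with only the 6 arrays, 3770 (2682, 1088) with array weights and 7 (6, 1) by analysis of variance with a Tukey test. Of the 716 genes in the lists 59 were called higher and 4 lower, against 1.52% and 0.264% of all genes. In other settings these numbers are to be read beside the counts over all probe sets above. They ran between 21 and 92 and between 1 and 17 over omissions of 1 array, and were 114 and 14 without air replicates 1 and 2, 16 and 3 with only the Notch4-/- arrays, 0 and 0 with 6 arrays, 111 and 40 with array weights and 6 and 0 by the Tukey test, and 10 members were lower with probe sets of a gene averaged. Differences from the WT response numbered 0 (0 to 1 over omissions, 20 with array weights). Differences from the Notch3-/- response numbered 20 (0 to 1385 over omissions, 3513 without air replicates 1 and 2, 80 with the replicate block, 651 after quantile normalization, 4736 with array weights). Calls between 24 and 6 hr numbered 1243 (222 to 1134 over omissions, 5188 with array weights), and between 48 and 24 hr 2197 (444 to 3986 over omissions, 849 after quantile normalization). The cause of these changes was not tested.

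Same-numbered 24 hr ozone and air mice deviated from their group means with correlations of 0.08, 0.17 and 0. Differently numbered ones ran between -0.19 and 0.06. Other groups were not compared in this way, and the main fit did not use the replicate block. With it the main count was 698. Of 96 named probe sets that were called, 89 were called without air replicates 1 and 2 (not *Notch4*, *Tef*, *Il33*, *Itih4*, *Sele*, *Gadd45g* or *Wif1*), 30 without air replicate 3 and 36 without ozone replicate 2, and each kept its sign in these fits. Leaving out arrays cannot turn the sign of a call whose groups do not overlap, so there it was fixed in advance. Signs turned for *Notch4* (0.38 after quantile normalization) and its second probe set (-0.3 to 0.02 over omissions of 1 array, 0.19 without air replicates 1 and 2). They also turned for *Tnf* (-0.07 to 0.23 over omissions, -0.03 after quantile normalization). The same held for *D17H6S56E-5* (-0.15 to 0.28 over omissions, -0.03 after quantile normalization, -0.26 with array weights) and *Pgm3* (-0.12 to 0.01 over omissions, 0.08 without air replicates 1 and 2).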

Other observations

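Some genes for building ribosomes were higher after 24 hr ozone in Notch4-/- lung. A list of ribosome assembly factors was written after the calls had been seen, so its counts are a description. Of its 121 measured genes 18 were higher (14.9%) and 0 lower, against 1.52% and 0.264% of all genes, with a median difference of 0.22, and 33 were higher and 1 lower without Notch4-/- air replicates 1 and 2. *Rrp12*, a ribosome export factor, had 0.52, 0.61 and 0.46 after ozone and -0.23, -0.13 and -1.10 in air (difference 1.02, SE 0.19, adjusted p = 0.0072 by limma). *Utp20* and *Heatr1*, of the complex that processes the small subunit RNA, were higher by 0.81 and 0.76, and *Polr1a*, the largest subunit of RNA polymerase I, by 0.72. The list gave 34 rises in Notch3-/- lung, where 1.79% of all genes rose. In WT lung it gave 0, where 0.0933% of all probe sets rose. Whether the genotypes differ in this list was not tested. Of 18 measured transfer RNA synthetases, a list made in the same way, 3 were higher (16.7%), *Iars* by 0.92, *Tars* by 0.59 and *Yars* by 0.47, and 0 were lower.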
